A study of Homo sapiens with 13 samples.

Results

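The RAB small GTPases were examined in K562 cells, a human erythroleukaemia line, through the amount and the loss of their mRNAs. The members were the protein-coding genes whose symbol is RAB followed by a number and an optional letter. Effectors and pseudogenes were left out. The rule found 63 genes among the 59204 gene IDs of the tables, of which 19443 are protein-coding in GENCODE 29.

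RAB proteins are membrane-bound switches that set the identity of compartments along the secretory and endocytic routes. They are active when bound to GTP and inactive when bound to GDP. Guanine nucleotide exchange factors (GEFs) load them, GTPase-activating proteins (GAPs) switch them off, prenyl groups anchor them in membranes and GDP dissociation inhibitors (GDIs) take them out again. In erythroid cells, RAB-dependent recycling returns the transferrin receptor to the surface.

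The cells had been given 30 µM 4-thiouridine (4sU), a uridine analogue that enters new RNA, for 12 h with fresh medium every 3 h. They were then washed and chased with 3 mM uridine, and harvested at 0, 1, 2, 4, 8 and 12 h of chase with 2 replicates each. A further library came from cells without 4sU and had no replicate. Alkylation with iodoacetamide makes 4sU read as a T-to-C change in 3′ end sequencing (SLAM-seq), so each library has a total count and a labelled count per gene. The labels name no genetic change in any library, and all carried 5% Drosophila spike-in.

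Total counts were 9004529 to 17425584 per library. The labelled share of all counts was 35.9% and 36.1% in the 0 h libraries and 10.9% and 10.6% in the 12 h libraries. The RAB genes together held 0.214% to 0.267% of each library, and 49 to 56 of them had a count. Without 4sU, 0 of 38889 RAB counts were labelled, which allows a share of up to 0.00988% (95% Wilson bound, counting error only). All 12 erythroid markers checked had a mean level of 5 or more in CPM, which are counts scaled to the total of the library; of the lymphoid, granulocyte and monocyte, and epithelial and fibroblast lists only CD3D, LYZ and EPCAM were, and KRT5 was at 0. Nothing in the labels says that the replicates came from separate cultures, and p-values then cover only library-to-library spread, which may be technical. The main component of the spike-in genes, with 66.8% of their variance, put the 0, 1 and 2 h libraries and replicate 1 at 4 h on one side, and replicate 2 at 4 h, the 8 and 12 h libraries and the library without 4sU on the other. This split runs almost with chase time, so the chase and the split cannot be told apart fully. The labels name no batch, and the cause of the split was not tested. Values with the split as a factor are given below. For total RNA, only the 4 h group had a library on each side. A change across the sides, fitted with the split, therefore rests on the difference between replicates 1 and 2 at 4 h. A call kept or lost in that fit is no independent check.

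Of the 63 RAB genes, 31 had a mean of at least 5 CPM and at least 100 labelled counts in the chase libraries and were tested for loss of label. The other 32 were under 5 CPM. RAB17, RAB19, RAB37, RAB39A and RAB41 had no count in any library. The low group held the neuronal and epithelial members RAB3C (mean 0.071 CPM) and RAB25 (0.299 CPM), and also RAB27B (0.605 CPM), RAB3D (1.94 CPM) and RAB4B (4.38 CPM).

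Loss of label was measured by regressing labelled counts on hours of chase, scaled to total library size, and the slope was tested against the median slope of all 9674 genes (-0.24 log2 units per h) with edgeR's quasi-likelihood test, Benjamini-Hochberg adjusted over all genes. The labelled RNA of 15 of the 31 RAB genes fell faster than the median, and that of 12 fell slower. Over all genes 35.8% fell faster and 36.2% slower, 72% in either direction. The remaining 4, RAB29, RAB18, RAB24 and RAB28, did not pass. Fitted apart, replicates 1 and 2 put 29 of the 31 on the same side of the median of all genes. The 27 that passed are among them. They were called from these same libraries, so their agreement is no separate support. The 29 has no share of all genes beside it and does not set RAB genes apart. With the spike-in split as a factor 11 fell faster and 10 slower, against 21.6% and 24.8% of all genes; RAB23, RAB40C, RAB21, RAB1A, RAB27A and RAB5C lost their call. The distance of the slope from the median then went from -0.23 to -0.10 log2 units per h for RAB23, from 0.02 to 0.01 for RAB27A, from 0.08 to 0.05 for RAB5C and from 0.11 to 0.07 for RAB11B. The median apparent half-life was 3.77 h for the 31 RAB genes and 4.29 h for all genes; the 10th and 90th percentiles of all genes were 2.3 and 10.8 h. The RAB genes ranged from 1.71 to 10.7 h, from below that lower percentile to just under the upper one.

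**Figure D1:**
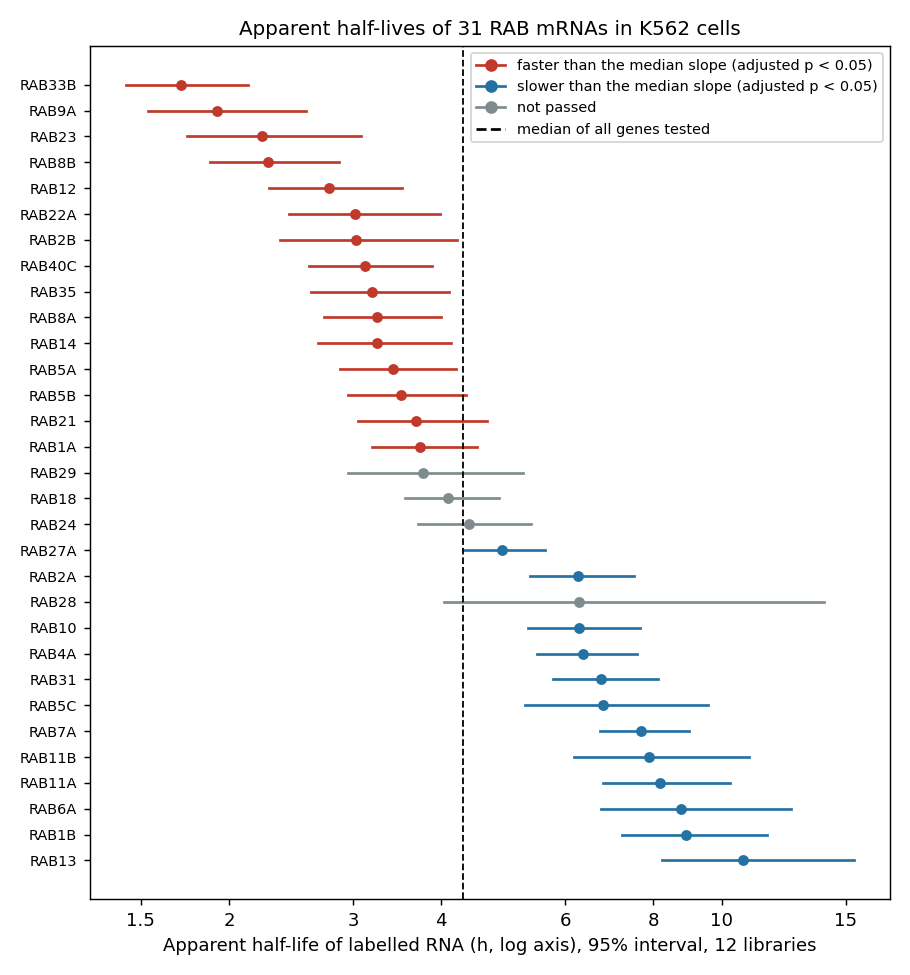
Apparent half-life of labelled RNA in hours on a log axis for each of the 31 RAB genes tested, from 12 chase libraries; points are fitted values, bars 95% intervals, colours the test against the median slope, and the dashed line the median of all genes (4.29 h). RAB33B lies shortest at 1.71 h and RAB13 longest at 10.7 h, and 15 genes are marked faster and 12 slower.

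Among the RABs of the endoplasmic reticulum and Golgi, 7 of 17 were tested, with 3 faster and 3 slower and a median of 4.09 h. The shortest was RAB33B, a Golgi RAB that binds the autophagy factor ATG16L1 (ENSG00000172007, chr4:139453232-139476609, + strand, GRCh38). Its labelled level was 10.1, 9.79, 5.52, 1.72, 0.753 and 0 CPM at 0, 1, 2, 4, 8 and 12 h in replicate 1 and 10.9, 9.73, 5.77, 1.88, 0.511 and 0.156 in replicate 2. The 0 and 1 h libraries were high and every library from 2 h on was lower, with no overlap between 2, 4, 8 and 12 h. The half-life was 1.71 h (95% interval 1.43 to 2.13), and the slope differed from the median by -0.35 ± 0.04 log2 units per h (SE, edgeR adjusted p = 8.9e-09). The count of 0 in replicate 1 at 12 h allows up to 0.261 CPM.

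RAB6A, which acts in transport at and out of the Golgi (ENSG00000175582, chr11:73675638-73761137, - strand), was among the slow members of this group. Its labelled level was 23.7, 23.9, 23.4, 22.3, 18.2 and 8.78 CPM at 0, 1, 2, 4, 8 and 12 h in replicate 1 and 24.0, 20.9, 25.4, 23.7, 15.4 and 8.81 in replicate 2. The libraries from 0 to 4 h overlapped, and those at 8 and 12 h lay below them. The half-life was 8.77 h (6.74 to 12.5; edgeR adjusted p = 8.6e-08). RAB2B (3.03 h), RAB2A (6.25 h) and RAB18 (4.09 h), all of the early secretory route or lipid droplets, lay between.

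RAB1A and RAB1B, near-identical proteins needed for transport from the endoplasmic reticulum to the Golgi, had mRNAs with different loss. The labelled level of RAB1A (ENSG00000138069, chr2:65070696-65130331, - strand) was 84.8, 80.8, 74.3, 58.4, 24.7 and 7.39 CPM at 0, 1, 2, 4, 8 and 12 h in replicate 1 and 81.8, 74.7, 72.1, 49.0, 21.1 and 8.19 in replicate 2. That of RAB1B (ENSG00000174903, chr11:66268533-66277492, + strand) was 21.8, 21.4, 17.2, 20.2, 12.6 and 8.69 CPM at 0, 1, 2, 4, 8 and 12 h in replicate 1 and 20.4, 20.0, 18.7, 19.1, 14.1 and 8.11 in replicate 2. RAB1A was lower from 4 h on than in any earlier library, whereas RAB1B at 4 h was still within the range of its 0 to 2 h libraries. The half-lives were 3.73 h (3.19 to 4.49) for RAB1A and 8.89 h (7.22 to 11.6) for RAB1B. The labelled share of RAB1A was 82.7% and 79.8% at the end of the pulse, and that of RAB1B 25.2% and 27.4%.

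The early endosome and recycling group had the most tested members, 11 of 16, with 6 faster and 5 slower and a median of 3.68 h. RAB5A, RAB5B and RAB5C are isoforms of the RAB of early endosome fusion. RAB5A (ENSG00000144566, chr3:19947079-19985175, + strand) had 36.5, 35.5, 32.7, 23.8, 9.87 and 3.04 labelled CPM at 0, 1, 2, 4, 8 and 12 h in replicate 1 and 37.0, 34.9, 34.2, 22.9, 8.09 and 2.03 in replicate 2. RAB5B (ENSG00000111540, chr12:55973913-55996683, + strand) had 72.8, 71.4, 59.9, 47.3, 20.1 and 5.39 CPM at 0, 1, 2, 4, 8 and 12 h in replicate 1 and 71.7, 69.6, 68.6, 50.4, 17.04 and 4.99 in replicate 2. Both were lower in every library at each step from 2 h on, and their half-lives were 3.42 h (2.88 to 4.20) and 3.51 h (2.95 to 4.34).

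RAB5C (ENSG00000108774, chr17:42124976-42155044, - strand) had 133, 131, 141, 124, 81.7 and 36.4 labelled CPM at 0, 1, 2, 4, 8 and 12 h in replicate 1 and 132, 130, 145, 129, 84.8 and 34.5 in replicate 2. Both 2 h libraries were above both 0 h libraries, and the loss was visible from 4 h on. The half-life was 6.79 h (5.26 to 9.55).

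RAB11A and RAB11B direct recycling endosomes. The labelled level of RAB11A (ENSG00000103769, chr15:65726054-65891991, + strand) was 79.5, 81.8, 79.0, 69.1, 54.7 and 29.5 CPM at 0, 1, 2, 4, 8 and 12 h in replicate 1 and 82.3, 80.9, 75.9, 73.8, 55.0 and 27.8 in replicate 2. That of RAB11B (ENSG00000185236, chr19:8389981-8404434, + strand) was 32.6, 32.4, 34.6, 28.8, 22.1 and 9.82 CPM at 0, 1, 2, 4, 8 and 12 h in replicate 1 and 33.4, 31.2, 29.6, 32.1, 22.3 and 11.4 in replicate 2. For RAB11B the 0 to 4 h libraries overlapped; both genes were lower at 8 h and lower again at 12 h, and the half-lives were 8.18 h (6.78 to 10.3) and 7.90 h (6.18 to 10.9). The other slow members of the group were RAB4A of fast recycling (6.36 h) and RAB31 of transport between Golgi and endosomes (6.75 h), and the other fast ones RAB22A (3.02 h), RAB35 (3.20 h), RAB14 (3.24 h) and RAB21 (3.68 h).

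In the late endosome and lysosome group 4 of 8 were tested. RAB9A, which returns mannose 6-phosphate receptors to the Golgi (ENSG00000123595, chrX:13689125-13710506, + strand), had 8.45, 9.79, 7.06, 2.50, 0.502 and 0.435 labelled CPM at 0, 1, 2, 4, 8 and 12 h in replicate 1 and 11.8, 9.88, 5.62, 2.24, 0.170 and 0.312 in replicate 2. The 0 and 1 h libraries overlapped, as did those at 8 and 12 h. Its half-life was 1.92 h (1.54 to 2.57; edgeR adjusted p = 8.9e-07). RAB7A, which drives maturation and fusion of late endosomes and lysosomes (ENSG00000075785, chr3:128726122-128814796, + strand), had 78.2, 78.3, 73.8, 70.0, 46.6 and 31.2 labelled CPM at 0, 1, 2, 4, 8 and 12 h in replicate 1 and 78.6, 82.6, 77.5, 66.4, 44.5 and 27.8 in replicate 2. Its label held through 1 h and was lower in each later pair of libraries, with a half-life of 7.69 h (6.72 to 8.99; edgeR adjusted p = 2.1e-10). RAB29, a partner of LRRK2 at the Golgi and lysosome (3.77 h), and RAB24, linked to autophagy (4.38 h), did not pass.

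Of the RABs of exocytosis and polarised secretion, 6 of 13 were tested, with 3 faster and 3 slower. RAB8B (ENSG00000166128, chr15:63189469-63267782, + strand) had 12.5, 8.48, 6.92, 4.45, 1.09 and 0.435 labelled CPM at 0, 1, 2, 4, 8 and 12 h in replicate 1 and 13.1, 8.93, 10.5, 4.65, 0.511 and 0.234 in replicate 2. The 1 and 2 h libraries overlapped and all others stood apart by time, with a half-life of 2.27 h (1.88 to 2.87). RAB13, a RAB of cell junctions whose mRNA is known to be carried to cell protrusions (ENSG00000143545, chr1:153981617-153986358, - strand), had 20.8, 18.3, 18.9, 15.9, 14.3 and 9.73 CPM at 0, 1, 2, 4, 8 and 12 h in replicate 1 and 15.9, 20.6, 22.3, 16.7, 14.1 and 9.36 in replicate 2. Its 0 and 4 h libraries overlapped, and the half-life was 10.7 h (8.22 to 15.4; edgeR adjusted p = 6.0e-10). RAB13 also had the lowest labelled share at the end of the pulse, 20.5% and 14.9%, against a median of 70.4% over the 31 RAB genes. RAB12 (2.77 h) and RAB8A (3.24 h) were faster, and RAB10 (6.27 h) and RAB27A (4.87 h; edgeR adjusted p = 0.046) slower.

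The cilium-associated RAB23, a negative regulator of Hedgehog signalling (ENSG00000112210, chr6:57186992-57222314, - strand), had 6.86, 7.65, 3.91, 3.20, 0.418 and 0.261 labelled CPM at 0, 1, 2, 4, 8 and 12 h in replicate 1 and 6.66, 7.26, 6.36, 1.88, 0.341 and 0.312 in replicate 2. Both 1 h libraries were above both 0 h libraries, and all later ones below. Its half-life was 2.23 h (1.75 to 3.08), and its call was lost with the spike-in split as a factor (edgeR adjusted p = 0.21). RAB28, which also acts at cilia, was at 6.27 h with a wide interval of 4.04 to 14.0 h. RAB40C, which joins a ubiquitin ligase complex through its SOCS box, was at 3.12 h.

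The first hours showed little loss of label for many RAB mRNAs. At 1 h both libraries were below both 0 h libraries for 10 of the 31 and above them for 2, RAB23 and RAB28. The genes below numbered 19 at 2 h, 29 at 4 h, and 31 at both 8 and 12 h. Each count compares 2 libraries with 2, where such an order can arise without any change. No share of all genes stands beside these counts, so they do not set RAB genes apart. Fitted over 0 to 4 h alone, the median half-life was 5.93 h for the RAB genes and 6.25 h for all genes, with 4 RAB genes faster and 10 slower than the median (19.7% and 17.3% of all genes). Over 2 to 12 h it was 3.38 h and 3.75 h. The count of faster genes thus depended on the window, and each half-life above summarises slopes that differed between windows.

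Slopes were compared within 7 pairs of RAB genes that share a number (RAB1, RAB2, RAB5, RAB8, RAB11), as the slope on time of the log2 ratio of their labelled counts. A two-sided permutation test over the 12 libraries (100000 resamples, Benjamini-Hochberg over the 7) found 5 pairs with different slopes. The pairs share libraries, and the 3 RAB5 pairs share genes. The log2 ratio of RAB1A to RAB1B went from 1.98 at 0 h to -0.11 at 12 h, a slope of -0.18 ± 0.01 per h (SE, n = 12, permutation adjusted p = 2.3e-05). The ratio of RAB2A to RAB2B rose by 0.35 ± 0.07 per h (permutation adjusted p = 3.5e-05); its 12 h end rests on RAB2B libraries at 0 and 0.312 labelled CPM. The ratio of RAB8A to RAB8B rose by 0.11 ± 0.03 per h (permutation adjusted p = 0.0055).

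Within RAB5, RAB5C stood apart from both others. The slope was -0.17 ± 0.01 per h for RAB5A to RAB5C and -0.16 ± 0.01 for RAB5B to RAB5C (permutation adjusted p = 2.3e-05 each). No difference passed for RAB5A to RAB5B, at -0.01 per h with a 95% interval of -0.03 to 0.01 (permutation adjusted p = 0.41), or for RAB11A to RAB11B, at 0.01 per h with an interval of -0.01 to 0.02 (permutation adjusted p = 0.24). The smallest p the resamples can give is 1e-05.

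**Figure D2:**
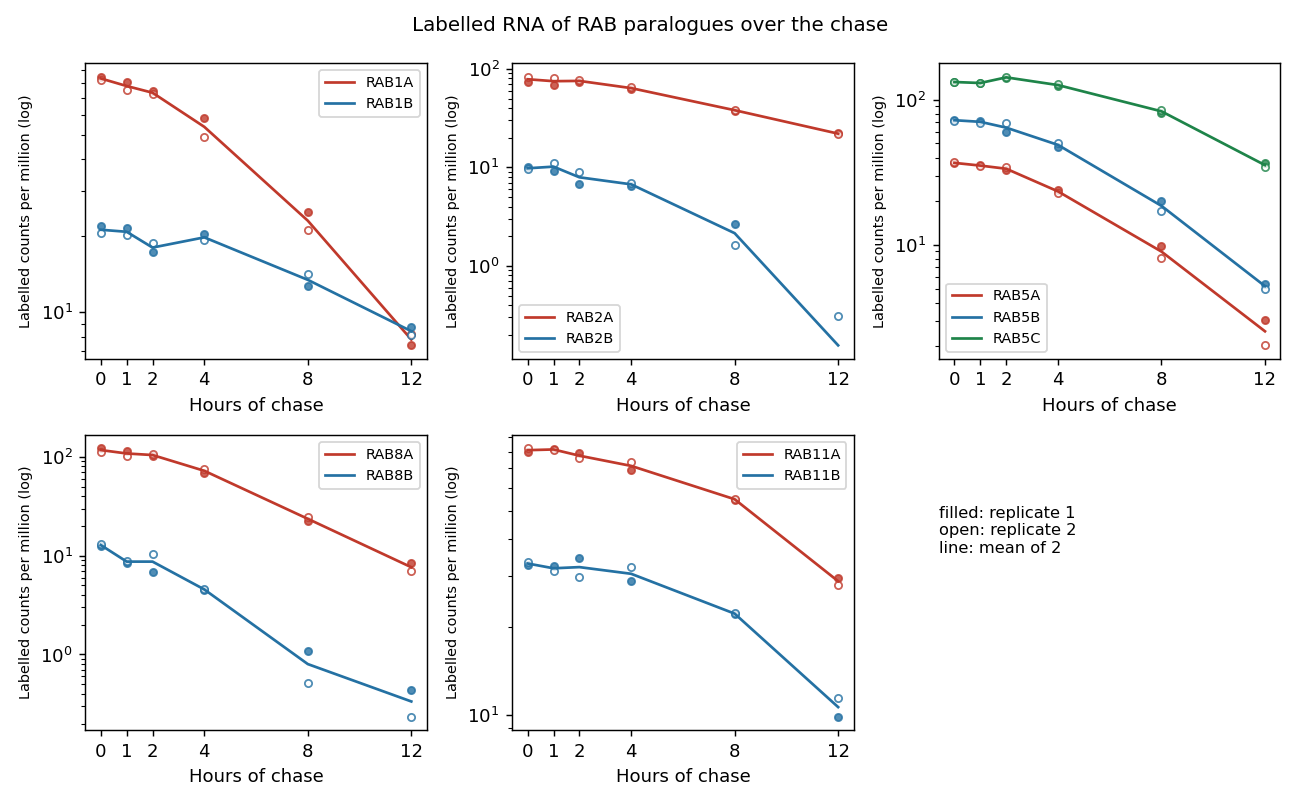
Labelled CPM, relative to total counts (log axes, each panel its own) against hours of chase for RAB genes that share a number; filled points are replicate 1, open points replicate 2, and lines the mean of the 2. RAB1A meets RAB1B at 12 h, RAB5A and RAB5B run side by side below RAB5C, and RAB11A and RAB11B run side by side; RAB2B replicate 1 at 12 h was 0 and has no point.

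The 3′ untranslated regions are shown because they are where known decay signals lie, and because the paralogues above differ in them. Both motifs were searched on the transcript strand of the GENCODE 29 principal transcripts: TATTTAT, the core of AU-rich elements, and TGTANATA, the Pumilio element, where N is any base. The windows below lie within 500 bases of the transcript end, with the motif in capitals and coordinates on GRCh38. They are a selection. Of the tested genes, RAB12 and RAB2A also hold TATTTAT there, and RAB10 and RAB24 also hold TGTANATA.
RAB1A, chr2:65087267-65087295 (-): tgaggcaaatgTATTTATtttggtgacat
RAB5B, chr12:55996388-55996416 (+): gaaatgtattaTATTTATgccccttactt
RAB5A, chr3:19984700-19984729 (+): ttcagctgtacTGTAAATAgggtactgcat
RAB11B, chr19:8404231-8404260 (+): tctccgtgtttTGTATATAcaaccgctctt
RAB13, chr1:153981775-153981804 (-): gcaaacataaaTGTAAATAcactgatttat
RAB14, chr9:121178286-121178315 (-): gaaacaaaaaaTGTAAATAcaaaagaaatc

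RAB1A (3.73 h) and RAB5B (3.51 h) hold TATTTAT in this window. RAB1B, RAB5C and RAB11A hold neither motif in it. In the RAB2 pair it is the gene of longer half-life, RAB2A (6.25 h), that holds TATTTAT in its last 500 bases. RAB2B (3.03 h) holds neither motif there. These half-lives are scaled to library size. Scaled to its own total, RAB5B was slower than the median and RAB1A did not pass. A link between motif and loss of label was not tested. The Pumilio element is found at both ends of the half-life range, in RAB13 (10.7 h) and RAB11B (7.90 h) as in RAB5A (3.42 h) and RAB14 (3.24 h). Among the 29 tested RAB genes with a 3′ UTR of at least 500 bases, 4 (13.8%) held TATTTAT in the last 500 bases, against 15.0% of 6026 coding genes. It was in 3 of 15 faster and 1 of 11 slower RAB genes. For TGTANATA the shares were 4 of 29 (13.8%) and 14.7%, with 2 of 15 faster and 2 of 11 slower genes. RAB13 and RAB24 have shorter 3′ UTRs (448 and 279 bases) and are outside these counts. In the whole 3′ UTR, TATTTAT was in 58.6% of these RAB genes and 41.1% of the coding genes, and TGTANATA in 55.2% and 35.8%, without regard to length. The RAB 3′ UTRs were long, with a median of 2176 bases (279 to 14612) against 1088 for all coding genes tested. Across the 31 genes, which share all libraries, Spearman's rho between half-life and 3′ UTR length was -0.32 (-0.25 over all 8425 coding genes tested) and between half-life and labelled share at 0 h -0.43.

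The calls also depend on what the label is scaled to, because total RNA of many RAB genes moved during the chase. Scaled to each gene's own total count, 13 RAB genes fell faster and 12 slower, against 38.3% and 39.7% of all genes, and 23 of 31 kept their call. The 23 has no share of all genes beside it. RAB8A and RAB5B were called the other way. RAB8A went from 3.24 h to 5.62 h and RAB5B from 3.51 h to 5.98 h, both slower than the median on this scale. RAB5A went from 3.42 h to 2.32 h and stayed faster, RAB4A from 6.36 h to 10.7 h, RAB6A from 8.77 h to 4.45 h, and RAB28 from 6.27 h to 2.99 h. RAB31 (3.42 h), RAB5C (4.17 h), RAB21 (3.60 h) and RAB1A (3.90 h) no longer passed, and RAB29 (2.93 h) and RAB28 were now faster.

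The RAB5 shares show this in the libraries. The labelled share of RAB5A at 0, 4 and 12 h was 71.5%, 21.9% and 2.55% in replicate 1 and 67.8%, 20.6% and 1.65% in replicate 2. That of RAB5B was 79.1%, 60.8% and 14.9% in replicate 1 and 80.3%, 64.7% and 14.6% in replicate 2. The RAB5B share was above the RAB5A share in every one of these libraries. As a ratio of shares, the slope of RAB5A to RAB5B was -0.23 per h (permutation adjusted p = 1.8e-05) and that of RAB5B to RAB5C 0.05 per h (permutation adjusted p = 0.00015), a change of sign. The pair RAB1A and RAB1B kept its difference, at -0.17 per h (permutation adjusted p = 1.8e-05).

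**Figure D3:**
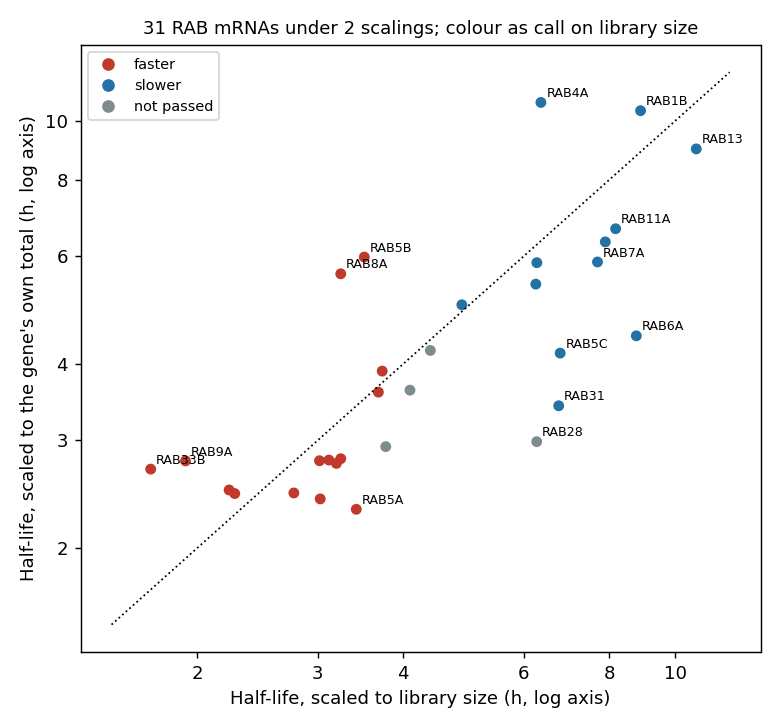
Apparent half-life in hours scaled to library size (horizontal) and to the gene's own total (vertical), both log axes, for the 31 RAB genes; colours give the call on library size and the dotted line equality. RAB8A, RAB5B and RAB4A lie above the line, and RAB5A, RAB5C, RAB6A, RAB31 and RAB28 below it.

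Total RNA was tested for 45 RAB genes in a model over all 13 libraries. In bulk RNA, a change in every cell and a change in the share of cells that hold a transcript cannot be told apart. The level changed over the chase for 34 of them, against 62.3% of 16255 genes. At 1 h against 0 h none passed edgeR's test in either direction (0.32% of all genes were higher and 0.0369% lower, 0.357% in all); 3 had an unadjusted p under 0.05, and DESeq2 called 0. At 2 h 6 were higher and 1 lower (5.25% and 1.73% of all genes, 6.98% in all), at 4 h 13 and 8 (16.7% and 15.5%; 32.2% in all). By 8 h 17 were higher and 11 lower (23.7% and 25.4%; 49.1% in all), and by 12 h 17 and 12 (27% and 29.1%; 56.1% in all). Library sizes from the spike-in shifted the median log2 change of all genes at 12 h from -0.06 to 0.36, and that of 0 h against no 4sU from 0.06 to 0.54. With them the RAB counts were 24 higher and 7 lower at 12 h (40.4% and 13.7% of all genes), and 19 higher and 13 lower at 0 h than without 4sU (46.4% and 18.4%). The folds below are relative to the trimmed-mean (TMM) scaling. CPM are scaled to the raw library total, so a fold can differ from the ratio of the CPM beside it. With the spike-in split as a factor, 8 of the 45 (17.8%) were higher and 6 (13.3%) lower at 12 h, against 17.9% and 19.2% of all genes. These 8 and 6 were among the 17 and 12 above. Without replicate 2 at 12 h, 11 were higher; RAB18, RAB11A, RAB23, RAB14, RAB1A, RAB4B, RAB43 and RAB11B lost their call.

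RAB28 and RAB31 rose most by 12 h. RAB28 was at 3.18, 5.10, 5.17, 8.83, 14.6 and 12.9 CPM at 0, 1, 2, 4, 8 and 12 h in replicate 1 and 3.33, 3.92, 7.62, 9.48, 11.6 and 13.6 in replicate 2, and at 13.3 without 4sU. Its 12 h level was 1.87 ± 0.22 log2 units above 0 h (SE, edgeR adjusted p = 5.1e-08). RAB31 was at 38.5, 45.9, 81.8 and 119 CPM at 0, 4, 8 and 12 h in replicate 1 and 36.8, 52.0, 93.1 and 128 in replicate 2, against 73.6 without 4sU, a rise of 1.56 ± 0.10 (edgeR adjusted p = 2.8e-13). The 12 h libraries of RAB31 lay above all others, whereas those of RAB28 overlapped its 8 h libraries and the value without 4sU.

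RAB5A and RAB5C rose as well. RAB5A went from 51.0 and 54.5 CPM at 0 h through 80.0 and 81.4 at 2 h to 119 and 123 at 12 h (1.05 ± 0.08 log2 units, edgeR adjusted p = 4.1e-12). RAB5C went from 171 and 170 to 358 and 337 CPM (0.88 ± 0.07, edgeR adjusted p = 3.1e-11). RAB5B moved the opposite way, from 92.1 to 77.7 to 36.1 CPM at 0, 4 and 12 h in replicate 1 and from 89.3 to 78.0 to 34.1 in replicate 2 (-1.52 ± 0.08, edgeR adjusted p = 2.5e-14). All 3 kept their direction and call with spike-in sizes. They also kept them with the spike-in split as a factor, a fit whose adjustment comes from the 4 h libraries alone.

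Among the set members, RAB7A rose by 0.41 ± 0.07 (edgeR adjusted p = 7.2e-06), RAB11A by 0.20 ± 0.07 (0.016) and RAB11B by 0.20 ± 0.08 (0.044), while RAB1A fell by 0.30 ± 0.08 (0.0025), all edgeR adjusted p. RAB1A was at 0.12 under spike-in sizes. RAB1B did not pass, at -0.17 ± 0.08 (edgeR adjusted p = 0.099). With the split as a factor only RAB7A of these still passed.

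The largest falls by 12 h were RAB30, RAB3B and RAB33B. RAB30, a Golgi RAB, was at 1.79 and 2.55 CPM at 0 h and 0.348 and 0.546 at 12 h (-2.38 ± 0.50, edgeR adjusted p = 0.00022). RAB3B, of regulated exocytosis, was at 2.68 and 2.67 CPM at 0 h and 0.782 and 0.468 at 12 h (-2.24 ± 0.58, edgeR adjusted p = 0.0018). Both had low counts, and neither passed with the split as a factor. RAB33B was at 13.6, 13.03, 8.80, 8.36, 4.85 and 3.04 CPM at 0, 1, 2, 4, 8 and 12 h in replicate 1 and 14.9, 11.3, 9.39, 7.42, 5.28 and 4.45 in replicate 2, against 2.12 without 4sU (-2.06 ± 0.20, edgeR adjusted p = 1.7e-09), and passed with the split too. It was the only RAB gene lower at 2 h (-0.68 ± 0.18, edgeR adjusted p = 0.017), when RAB28 (0.93 ± 0.24) and RAB5A (0.58 ± 0.08) had the largest rises. At 4 and 8 h RAB28 and RAB5A again rose most and RAB3B and RAB33B fell most.

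The libraries at the end of the pulse were set against the library without 4sU, which has no replicate and is assumed to vary like the other groups. Of the 45 RAB genes 13 were higher after the pulse and 20 lower, against 33.5% and 31.8% of all genes (65.3% in all). With the split as a factor 25 of these 33 passed. No share of all genes stands beside that count, so it does not set RAB genes apart. This comparison shares the 0 h libraries with that of 12 h against 0 h, so the values stand side by side below and no relation between them is drawn.

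RAB33B was 2.69 ± 0.27 log2 units higher after the pulse (edgeR adjusted p = 1.5e-09). RAB27A, which tethers secretory lysosomes and was picked after its values were seen, was at 36.5 CPM without 4sU and at 178 and 197 CPM at 0 h (2.30 ± 0.09, edgeR adjusted p = 2.0e-17). It was still at 177 and 175 CPM at 12 h (-0.24 ± 0.07 against 0 h, but 0.18 with spike-in sizes). RAB8A, which takes vesicles to the plasma membrane and was also picked after its values were seen, was at 41.5 CPM without 4sU, and at 179, 131 and 60.1 CPM at 0, 4 and 12 h in replicate 1 and 161, 140 and 58.8 in replicate 2. It was 1.98 ± 0.10 higher after the pulse and -1.67 ± 0.08 at 12 h against 0 h (edgeR adjusted p = 3.6e-15 and 1.4e-15). RAB5B was at 33.2 CPM without 4sU and 1.40 ± 0.10 higher at 0 h (edgeR adjusted p = 4.6e-12).

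RAB6C had no count without 4sU and 5 and 8 counts at 0 h, at least 2.89-fold higher than 3 counts in the library without 4sU. Its transcript shares long identical runs with RAB6A and RAB6D, so its count is uncertain. RAB26 had 23 counts without 4sU and none at 0 h, at least 3.96-fold lower by the same floor of 3 counts, here in a 0 h library; with the split as a factor its fitted fold was the same and the test no longer passed. RAB3D, of regulated exocytosis, was at 9.47 CPM without 4sU and 1.49 and 1.55 CPM at 0 h (-2.68 ± 0.39, edgeR adjusted p = 1.0e-06), and stayed low at 1.30 and 2.42 CPM at 12 h. RAB28 was at -2.08 ± 0.25 log2 units after the pulse (edgeR adjusted p = 3.3e-08), RAB5A was at -0.96 ± 0.09, RAB5C at -0.83 ± 0.08 and RAB11B at -1.29 ± 0.09, all past the threshold. RAB1A and RAB1B did not pass, at 0.21 ± 0.10 and -0.19 ± 0.10 (edgeR adjusted p = 0.062 and 0.091).

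**Figure D4:**
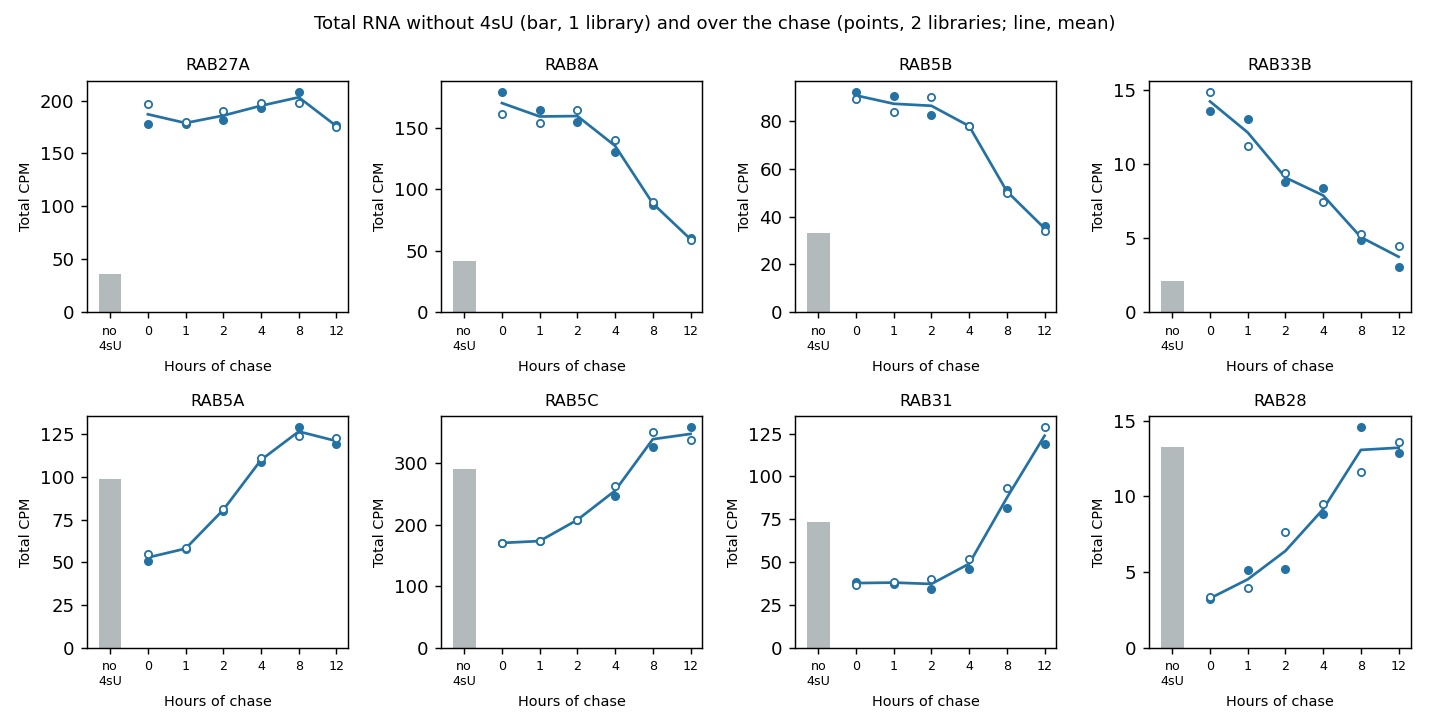
Total CPM (linear axes from 0, each panel its own) without 4sU (grey bar, 1 library) and at 0 to 12 h of chase (filled points replicate 1, open points replicate 2, lines the mean) for 8 RAB genes. RAB27A, RAB8A, RAB5B and RAB33B were higher at 0 h than without 4sU and RAB5A, RAB5C, RAB31 and RAB28 lower; by 12 h RAB27A was still at 177 and 175 CPM while RAB31 had passed its value without 4sU.

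By role, the total RNA of the 13 tested early endosome and recycling genes was higher at 12 h for 8 and lower for 3. Of the 11 tested secretory RABs 0 were higher and 4 lower, and of the 11 tested endoplasmic reticulum and Golgi RABs 4 were higher and 3 lower. Over all genes 27% were higher and 29.1% lower. These counts are on TMM sizes. With spike-in sizes the secretory RAB10 (0.43 log2 units), RAB12 (0.57) and RAB13 (0.56) were higher, while RAB8A and RAB3B stayed lower. With the split as a factor, only RAB8A and RAB27A of the secretory RABs kept their call. In the recycling group RAB14, RAB31, RAB5A and RAB5C kept their rise, and RAB4A and RAB5B their fall. In the endoplasmic reticulum and Golgi group RAB6A and RAB33B kept their call. These groups were not tested against each other.

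The genes that act on RABs were read from lists of their known regulators, and their counts stand against 35.8% faster and 36.2% slower over all genes. Of 7 prenylation and GDI genes, 2 fell faster and 4 slower than the median in labelled RNA, with a median half-life of 5.90 h. RABGGTB, a subunit of the enzyme that prenylates RABs, was at 2.70 h and its escort protein CHML at 3.48 h; RABAC1 was at 22.2 h, with a lower limit of 7.85 h and no upper one. Of 34 GEF genes tested, 13 fell faster and 10 slower (median 3.73 h), from RABIF (2.13 h) and DENND4C (2.33 h) to TRAPPC4 (10.4 h) and TRAPPC1 (14.0 h). Of 25 GAP genes, 11 fell faster and 6 slower (median 3.86 h), from TBC1D25 (2.37 h) and TBC1D10B (2.50 h) to TBC1D5 (7.22 h) and TBC1D7 (7.30 h). Of 33 effector genes, 10 fell faster and 6 slower (median 4.31 h), from RUFY2 (2.13 h) and RAB11FIP2 (2.24 h) to APPL1 (9.73 h) and GOLGA2 (10.5 h).

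In total RNA at 12 h against 0 h, 2 of the 7 prenylation and GDI genes were higher and 3 lower, and 16 of 41 GEF genes higher and 9 lower. For GAPs the numbers were 17 and 3 of 33, and for effectors 22 and 8 of 42, against 27% and 29.1% of all genes. The median log2 change was -0.46, 0.17, 0.31 and 0.39 in these lists, 0.16 over the RAB genes and -0.06 over all genes tested.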

How the data were processed

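Total and labelled counts per gene were deposited by the authors as raw counts for 13 libraries, with a separate count table for the Drosophila spike-in. Per the submitters' processing notes, bcl2fastq 2.17.1.14, Trim Galore 0.6.5 and bedtools were used, with the hg38 and dm6 builds. The sources used here do not name the aligner or counter, whether strand was used, or the rule that calls a read labelled. Overlapping and antisense genes therefore could not be separated.

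Symbols came from a gene-name table for 40541 IDs and from GENCODE 29 alone for 15297. The members and lists were chosen with earlier results of these data known. Named beyond the counts were the 4 shortest and 4 longest half-lives, the 2 largest rises and falls of each total contrast, 8 set members, and, per regulator list, the 2 genes of shortest and the 2 of longest half-life. A gene that this rule names is not reported here.

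Slopes and totals were fitted with edgeR 4.0.16 (R 4.3.3) quasi-likelihood tests, TMM sizes and a false discovery rate of 0.05, with DESeq2 1.42.0 as an alternative. Half-lives were fitted with a quasi-Poisson model of an exponential plus the background share of the library without 4sU, in Python 3.11.15 with scipy 1.17.1. Paralogue ratios used a prior count of 0.5. The code was tested on simulated data. It recovered 41% of slopes shifted by 0.05 log2 units per h and 86% of those shifted by 0.1. For total RNA at 12 h against 0 h it recovered 30.6% of changes of 0.5 log2 units and 49.5% of changes of 1. False calls were 6.62% of the slope calls and 2.6% of the total calls. A gene that did not pass may therefore still have changed.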

Additional observations from a re-analysis of the deposited data

How the results depend on the processing

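The number of RAB genes faster than the median was 4 over 0 to 4 h, against 19.7% of all genes. The median half-life was 4.31 h with spike-in library sizes (5.00 h for all genes) and 3.63 h with the gene's own total (3.78 h). It was 5.93 h over 0 to 4 h (6.25 h for all genes) and 3.38 h over 2 to 12 h (3.75 h). When each library was left out in turn it was 3.60 to 4.02 h (4.18 to 4.46 h for all genes). With the spike-in split as a factor, 21 genes changed over the chase, and 8 were higher and 6 lower at 12 h. Of all genes 17.9% were higher and 19.2% lower at 12 h with the split. No share of all genes stands beside the 21 or beside the counts with a library left out. Leaving out each library gave 11 to 19 higher at 12 h, the lowest without replicate 2 at 12 h. With spike-in sizes 7 were lower at 12 h and 13 lower at 0 h than without 4sU, against 13.7% and 18.4% of all genes.

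The slope relative to the median changed sign with the own total for RAB8A (0.0656), RAB5B (0.0787), RAB28 (-0.0686) and RAB31 (-0.0283), over 0 to 4 h for RAB21 (0.0175) and RAB24 (-0.0627), with the split for RAB29 (0.0351) and RAB24 (-0.00519), and for RAB24 when libraries were left out in turn (-0.00623 without replicate 1 at 8 h to 0.017). With spike-in sizes the 12 h change turned for RAB27A (0.178), RAB21 (0.0156) and RAB1A (0.117). The causes were not tested. Of the other gene values, 637 slopes, 462 changes at 12 h and 572 changes at 0 h kept direction and side of the threshold, 31, 57 and 22 no longer passed, and 3 slopes newly passed.

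The replicate numbers did not pair the libraries in a steady way: over 15 pairs of times the correlation of deviations was -0.18 to 0.49, and over 0.1 in 5. It was 0.252 between 0 and 1 h, 0.185 between 0 and 2 h and 0.136 between 1 and 2 h, so some pairing of early libraries may exist. With the replicate block, 15 genes were faster and 12 slower, and 18 were higher and 11 lower at 12 h. No share of all genes stands beside these counts.

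Low counts limit RAB30, RAB3B, RAB26 and RAB6C, and 32 RAB genes could not be tested for loss of label.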
